A study of Mus musculus with 6 samples.

Results

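The cytochrome P450 genes of the Cyp1, Cyp2 and Cyp3 families were followed in liver RNA of 6 mice. Members were all genes whose symbol in the array's platform annotation reads Cyp, then 1, 2 or 3, then a letter, such as Cyp1a2, Cyp2c29 and Cyp3a11. Of 12393 genes tested, 39 were members with a probe set of their own: 3 of Cyp1, 31 of Cyp2 and 5 of Cyp3, in 12 subfamilies. Another 4 genes were reached only through 2 probe sets that name a pair of genes each, Cyp2a5 with Cyp2a4 and Cyp3a41b with Cyp3a41a. In all, 48 probe sets covered these 43 genes, and where a gene had several, the one with the highest mean over the 6 arrays was used. No filter on low values was set, so all 39 were tested.

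The first group comprised 3 TFEB-injected Ppara KO mice, injected in the liver with adenovirus carrying TFEB, the transcription factor that switches on lysosomal and autophagy genes. The second comprised 3 not-injected Ppara KO mice. Every mouse, in both groups, was 1 month old and of C57 background, and had the genotype Ppara KO; Ppara encodes the fatty acid receptor that regulates lipid genes in liver. The controls received no vector, so that effects of TFEB, of the adenovirus and of the injection cannot be told apart here. Each array stands for 1 mouse, and the labels call them biological replicates. The labels do not give the promoter of the vector, the species of its TFEB, the time after injection or the sex of the mice.

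P450 enzymes of these families sit in the endoplasmic reticulum of hepatocytes and use a heme group to insert oxygen into drugs, plant compounds, steroids, bile acids and arachidonic acid. They take electrons from the reductase encoded by Por and, for some reactions, from cytochrome b5. Many are under the control of the foreign-compound sensors AHR, CAR (Nr1i3) and PXR (Nr1i2), and several are expressed mainly around the central vein of the lobule or in one sex. Most belong to clusters of recently duplicated genes, so that a probe set can also bind transcripts of close relatives.

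Values are the deposited log2 levels, on a scale that ran from 3.08 to 15.20 in these arrays. A change is the mean of the TFEB-injected arrays minus that of the not-injected arrays, and a gene is said to have risen or fallen where its p-value, adjusted over all 12393 genes, was under 0.05. Array-to-array correlations over all genes were 0.995 to 0.998 within the TFEB-injected group, 0.998 to 0.999 within the not-injected group and 0.989 to 0.993 between them. The Tfeb probe set changed by 0.04 ± 0.07 (SE; adjusted p = 0.777) and the Ppara probe set by 0.13 ± 0.05 (adjusted p = 0.149). Since it is unknown whether these probe sets detect the vector's TFEB or the deleted part of Ppara, they check no label. The liver label was borne out by hepatocyte markers: Alb, for albumin, was at 14.94 to 14.95 in TFEB-injected and 15.01 to 15.03 in not-injected livers. Of 8 such markers 1 rose and 0 fell, beside 9.99% risen and 7.92% fallen over all genes. Levels of Xist, the transcript of the inactive X chromosome, were 5.71 to 5.89 in TFEB-injected and 5.85 to 5.95 in not-injected livers. The Y-linked Eif2s3y was at 10.23 to 10.28 in TFEB-injected and 10.33 to 10.43 in not-injected livers. By mean level Eif2s3y ranked at percentile 87.4 of the tested genes and Xist at 25.8. Such levels are those of male liver, in every array, though the labels do not state the sex. Of 4 measured genes of the sex chromosomes 1 fell, the Y-linked Kdm5d (-0.27 ± 0.04, adjusted p = 0.00483 by limma).

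Falls outnumbered rises among the P450 genes of TFEB-injected livers. Of 39 members, 14 fell and 3 rose, and the other 22 did not pass the test. The fallen were 35.9% and the risen 7.69% of the members, beside 7.92% fallen and 9.99% risen over all genes tested (17.9% in either direction). Of 24 P450 genes of other families, 6 fell and 4 rose, so that 41.7% of them were called, beside 43.6% of the members. After the arrays were centred on their medians, 16 members fell and 3 rose, while over all genes 1352 fell and 1060 rose, against 981 and 1238 without centring. The median change of the members was -0.16, beside -0.01 over all genes. The groups did not overlap in 19 members that were lower and 4 that were higher in TFEB-injected livers; over all genes such separation was seen in 18.9% lower and 18.2% higher. The total of 17 called members was 11 without not-injected replicate 2 or without not-injected replicate 3, at 10 lower and 1 higher each time.

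**Figure D1:**
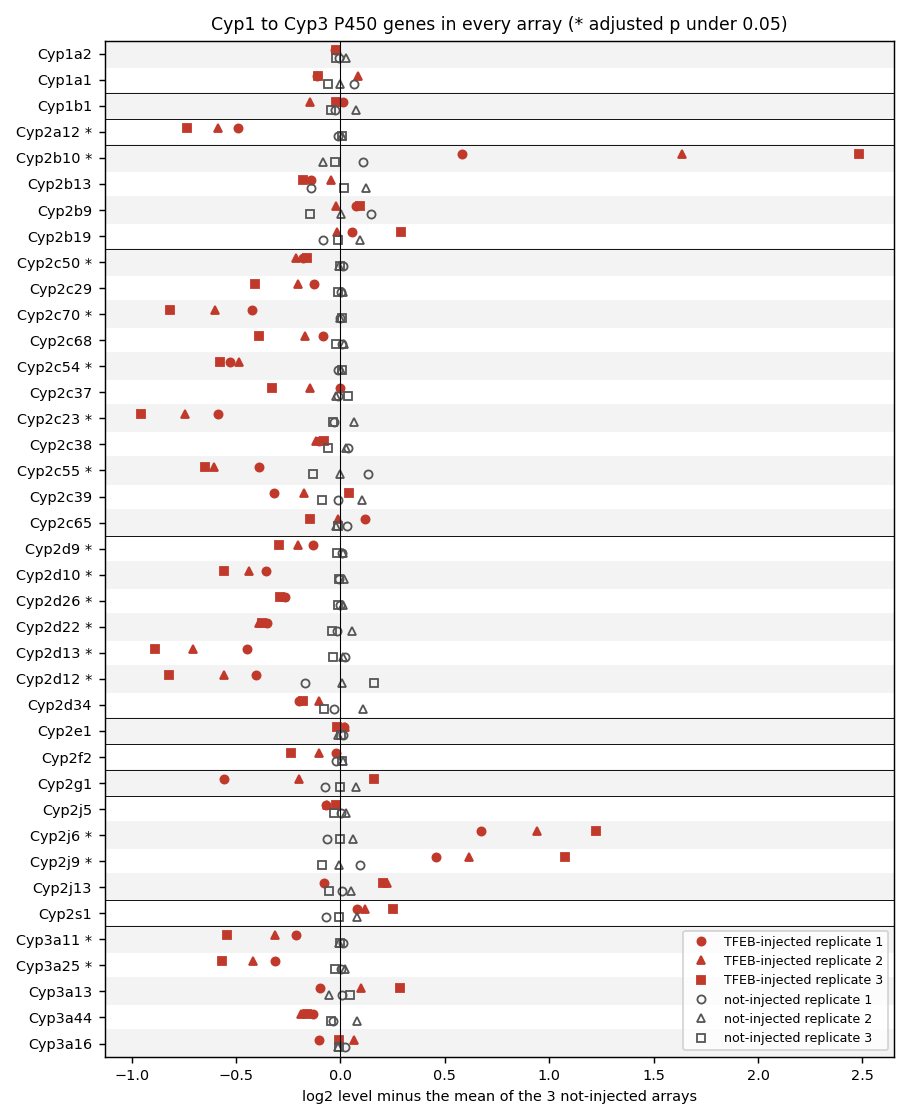
Log2 level of each of the 39 P450 genes in each array, minus the mean of the 3 not-injected arrays. Rows are genes grouped by subfamily, filled red symbols are TFEB-injected and open grey symbols not-injected arrays, the symbol's shape gives the replicate, and asterisks mark the 17 genes with an adjusted p under 0.05. Open symbols lie close to 0, and filled symbols lie to the left for all 7 Cyp2d genes and to the right for Cyp2b10, Cyp2j6 and Cyp2j9.

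The changes were small in size on the array scale, and levels near its ends limit what the arrays can show. Whether high levels made these changes smaller was not tested. The 14 falls lay between -0.76 and -0.18, that is between 1.70-fold and 1.14-fold lower in TFEB-injected livers, and the 3 rises between 0.72 and 1.57. Of 24 members at or above the median gene level of 7.34, 13 fell and 2 rose (54.2% and 8.33%). Over all genes at or above that level, 11.4% fell and 16.2% rose. Of 15 members below it, 1 fell and 1 rose, 6.67% each. These shares lie near the 7.92% fallen and 9.99% risen over genes of any level, and are not read as a result about dim members. Of 16 members with a mean level over 12, 9 fell and 0 rose, beside 20.8% and 16.9% of all 485 such genes. Members varied more among the TFEB-injected mice, with a median SD of 0.12 against 0.05 among not-injected mice; over all genes these medians were 0.08 and 0.06.

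**Figure D2:**
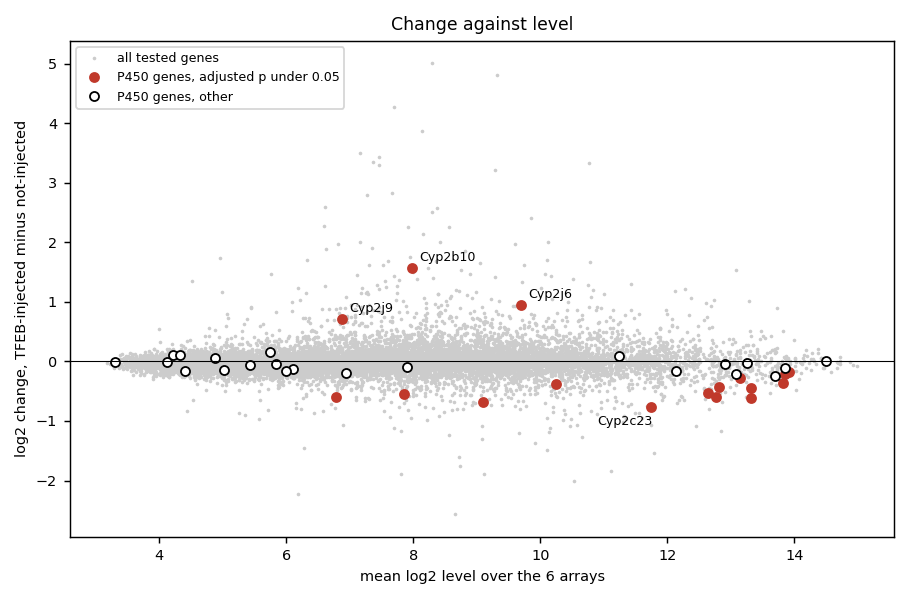
Change of each gene on the log2 scale (TFEB-injected minus not-injected) against its mean log2 level over the 6 arrays, with P450 genes past the threshold in red, other P450 genes as open circles and all 12393 tested genes in grey. Most P450 genes with levels over 12 lie below 0, and Cyp2b10, Cyp2j6 and Cyp2j9 stand above it.

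The Cyp2d genes, among them relatives of the human drug-metabolizing CYP2D6, were lower in every case. Of 7 measured, 6 fell and 0 rose, and in all 7 the TFEB-injected arrays lay below the not-injected ones. The median change was -0.37, and all 7 changes were also negative after median centring and with cyclic loess. Cyp2d22, often regarded as the closest functional counterpart of CYP2D6, was at 10.08, 10.04 and 10.06 in TFEB-injected livers, against 10.42, 10.49 and 10.39 in not-injected livers. Its arrays were tight in both groups and separate, with a change of -0.37 ± 0.05 (SE; adjusted p = 0.00192), and a second Cyp2d22 probe set gave -0.64 ± 0.05. Cyp2d10 was at 13.19, 13.11 and 12.99 in TFEB-injected livers, against 13.54, 13.57 and 13.54 in not-injected livers. That is a change of -0.45 ± 0.06 (adjusted p = 0.00229), with the 3 not-injected mice nearly equal and the injected ones spread out below them.

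Cyp2d13, which RefSeq lists as a transcribed pseudogene, had levels of 8.996, 8.74 and 8.55 in TFEB-injected and 9.47, 9.46 and 9.41 in not-injected livers. It was 1.60-fold lower (-0.68 ± 0.10; adjusted p = 0.00437), the largest fall of the subfamily, and its second probe set gave -0.79 ± 0.13. Cyp2d12 was measured at 6.68, 6.52 and 6.26 in TFEB-injected livers and at 6.91, 7.09 and 7.24 in not-injected livers. Both groups were spread out at this level, without overlap, and the change was -0.60 ± 0.12 (adjusted p = 0.0147). Cyp2d26 fell by 0.28 ± 0.04 (adjusted p = 0.00425). Cyp2d9, a male-biased steroid hydroxylase of mouse liver, was at 13.82, 13.75 and 13.66 in TFEB-injected and 13.96, 13.97 and 13.94 in not-injected livers. That small fall of 0.21 ± 0.05 on the log2 scale (adjusted p = 0.0348) did not hold when TFEB-injected replicate 2 or 3, or any 1 of the 3 not-injected arrays, was dropped (highest adjusted p 0.109). Dropping not-injected replicate 2 (adjusted p = 0.0575) or 3 (adjusted p = 0.0520) ended the Cyp2d12 call, and Cyp2d34, at -0.16 ± 0.06, did not pass (adjusted p = 0.124).

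Members of the Cyp2c subfamily, which oxidise drugs, arachidonic acid and, for one of them, bile acids, were lower or little changed. Of 11 measured, 5 fell and 0 rose, with a median change of -0.21, and 8 were lower without overlap. Cyp2c23, also called Cyp2c44 and known as an arachidonic acid epoxygenase, was at 11.54, 11.38 and 11.17 in TFEB-injected livers, against 12.10, 12.19 and 12.10 in not-injected livers. Its change of -0.76 ± 0.09 (adjusted p = 0.00161), or 1.70-fold lower, was the largest fall of the 39 members. The 1 probe set of Cyp2c23 has a name that marks it as open to related transcripts. Cyp2c70, the enzyme that makes muricholic acids in mouse liver, stood at 13.20, 13.03 and 12.81 in TFEB-injected livers, against 13.63, 13.63 and 13.64 in not-injected livers. The not-injected mice differed by 0.01 or less from their mean, and all 3 injected mice lay clearly below them (-0.61 ± 0.09; adjusted p = 0.00417).

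Cyp2c54, another arachidonic acid oxidase, had 12.37, 12.41 and 12.32 in TFEB-injected livers and 12.89, 12.90 and 12.91 in not-injected livers. Tight values in both groups gave it the smallest adjusted p of the members, 3.94e-04, for a change of -0.53 ± 0.05. Cyp2c55, which CAR and PXR activators induce, was at 7.73, 7.52 and 7.47 in TFEB-injected livers, against 8.26, 8.12 and 7.99 in not-injected livers (-0.55 ± 0.09; adjusted p = 0.00622). Its not-injected arrays were as spread out as the injected ones. Cyp2c50 was at 13.83, 13.80 and 13.85 in TFEB-injected and 14.02, 14.00 and 14.01 in not-injected livers. This fall of 0.18 ± 0.04 (adjusted p = 0.0232) was lost without TFEB-injected replicate 2 or any 1 of the not-injected arrays (adjusted p up to 0.103).

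Phenobarbital-inducible Cyp2c29 just missed the threshold, with 13.69, 13.61 and 13.40 in TFEB-injected livers, against 13.81, 13.82 and 13.80 in not-injected livers (-0.25 ± 0.07; adjusted p = 0.0617). It passed without TFEB-injected replicate 1 and after median centring. Cyp2c68 (-0.21 ± 0.08; adjusted p = 0.109) had the same layout of separate groups, and Cyp2c37 (-0.16 ± 0.08; adjusted p = 0.238) overlapped. The other 3 members did not pass: the change was -0.10 for Cyp2c38, -0.15 for Cyp2c39 and -0.01 for Cyp2c65. In the reference gene order Cyp2c54, Cyp2c50 and Cyp2c70 stand side by side at one end of the main Cyp2c cluster, Cyp2c55 stands at its other end, and Cyp2c23 lies apart from it.

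The Cyp2a genes, which hydroxylate steroids and coumarin, were lower. Cyp2a12, a steroid and bile acid hydroxylase, was at 12.57, 12.47 and 12.33 in TFEB-injected livers, against 13.05, 13.07 and 13.07 in not-injected livers. It was 1.52-fold lower (-0.60 ± 0.07; adjusted p = 0.00115), and no array left out ended the call. The probe set shared by Cyp2a5, the coumarin hydroxylase, and Cyp2a4, a steroid hydroxylase, gave 11.70, 11.69 and 11.64 in TFEB-injected and 12.57, 12.53 and 12.58 in not-injected livers. It was 1.84-fold lower (-0.88 ± 0.05; adjusted p = 8.99e-05 over all 22626 probe sets), with both groups tight, and which of the pair carries the change cannot be read from it. The 250 bases before the start of Cyp2a12 and of Cyp2c70, as examples of genes that fell, are printed from RefSeq (build GRCm38.p6), 5′ to 3′ on the gene's strand. Capitals mark the short motifs described with the Cyp2j genes, here TATAAA in Cyp2a12 and AGGTCA in Cyp2c70.
Cyp2a12 (chr7:27028840-27029089, strand +): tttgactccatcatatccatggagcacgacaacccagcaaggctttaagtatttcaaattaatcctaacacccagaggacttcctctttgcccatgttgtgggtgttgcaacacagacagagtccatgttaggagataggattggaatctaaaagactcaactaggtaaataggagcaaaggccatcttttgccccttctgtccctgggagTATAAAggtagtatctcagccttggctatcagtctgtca
Cyp2c70 (chr19:40187287-40187536, strand -): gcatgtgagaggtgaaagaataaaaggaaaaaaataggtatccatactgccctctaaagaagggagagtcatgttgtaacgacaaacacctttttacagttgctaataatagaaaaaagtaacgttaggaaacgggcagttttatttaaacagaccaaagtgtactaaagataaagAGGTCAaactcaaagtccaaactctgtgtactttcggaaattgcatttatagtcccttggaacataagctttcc

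Within Cyp3a, the subfamily that carries much of hepatic drug oxidation, the 2 brightest forms fell. Of 5 measured, 2 fell and 0 rose. Cyp3a11, the classical PXR target of mouse liver, was at 13.79, 13.69 and 13.46 in TFEB-injected livers, against 14.01, 13.99 and 14.00 in not-injected livers. The fall was 0.36 ± 0.08 on the log2 scale (adjusted p = 0.0255), and it was lost without TFEB-injected replicate 2 (adjusted p = 0.0685) or any 1 of the not-injected arrays (adjusted p up to 0.0847). Cyp3a25 had 12.72, 12.61 and 12.46 in TFEB-injected livers and 13.03, 13.05 and 13.01 in not-injected livers (-0.43 ± 0.07; adjusted p = 0.00534). Both genes showed 3 nearly equal not-injected mice with the injected ones below, and they are neighbours in the reference gene order. Cyp3a13 did not pass (0.10 ± 0.09; adjusted p = 0.539), its injected arrays lying on both sides of the not-injected ones. Female- or fetus-biased forms were at the low end of the scale. Cyp3a16 was at 3.20 to 3.37 in TFEB-injected and 3.29 to 3.32 in not-injected livers, and Cyp3a44 at 4.29 to 4.35 in TFEB-injected and 4.44 to 4.56 in not-injected livers. The probe set shared by Cyp3a41b and Cyp3a41a changed by -0.29 ± 0.07 (adjusted p = 0.0356 over all probe sets).

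**Figure D3:**
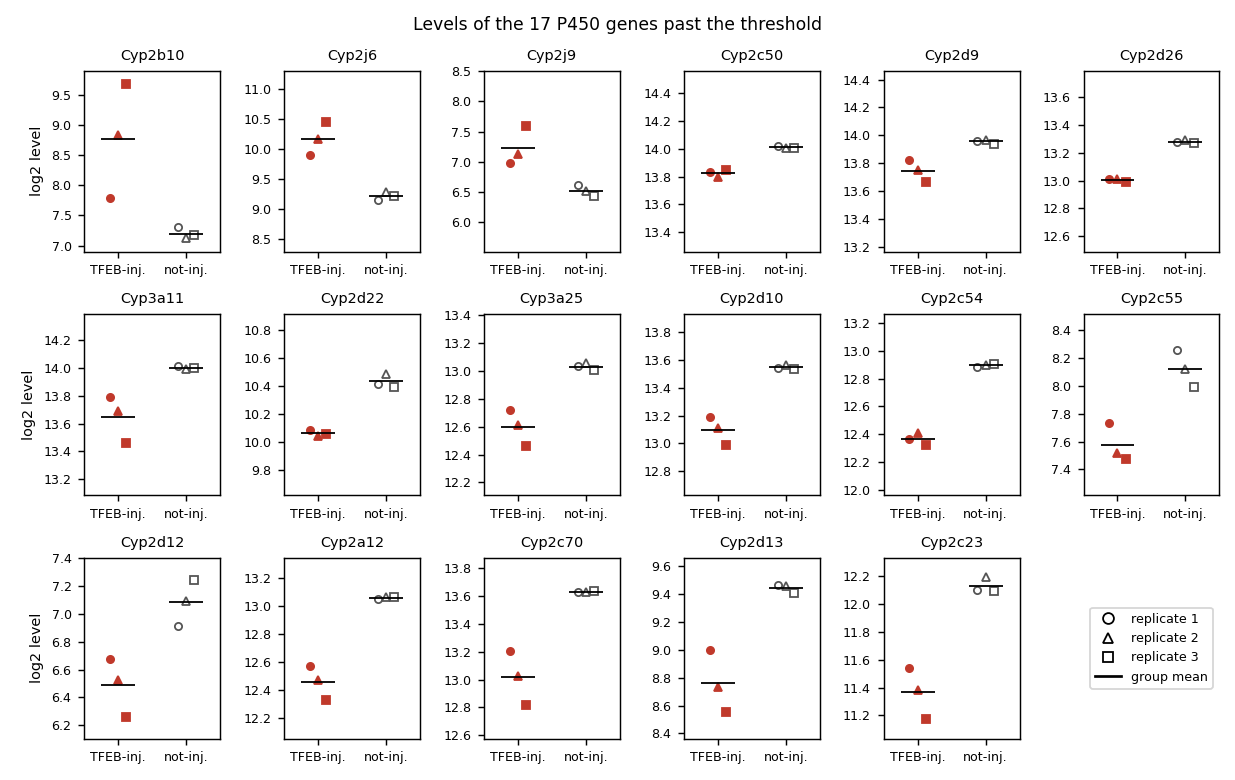
Log2 level in each array of the 17 P450 genes with an adjusted p under 0.05, ordered from the largest rise to the largest fall, each panel centred on its own values. The vertical span is the same in all panels of genes that rose, and is narrower, again the same, in all panels of genes that fell. TFEB-injected mice stand left and not-injected mice right, symbols give the replicate and lines the group means. In Cyp2b10, TFEB-injected replicate 3 is at 9.68 and replicate 1 at 7.78, and in Cyp2c70 the 3 not-injected mice lie on 1 line.

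The Cyp2j genes, for epoxygenases of arachidonic acid, differed among themselves. Of 4 measured, 2 rose and 0 fell by their brightest probe sets, and a second probe set of Cyp2j5 was lower. Cyp2j6, a form found in many tissues, was at 9.89, 10.16 and 10.44 in TFEB-injected livers, against 9.15, 9.28 and 9.22 in not-injected livers. It was 1.93-fold higher (0.95 ± 0.13; adjusted p = 0.00245), with every injected mouse well above the not-injected ones. Cyp2j9, described in brain, was at 6.97, 7.13 and 7.59 in TFEB-injected livers and 6.61, 6.51 and 6.43 in not-injected livers, a 1.64-fold rise (0.72 ± 0.15; adjusted p = 0.0152). It missed the threshold once not-injected replicate 2 (adjusted p = 0.0587) or 3 (adjusted p = 0.0579) was dropped. Cyp2j5, the abundant form of liver and kidney, was at 12.87, 12.88 and 12.92 in TFEB-injected and 12.94, 12.97 and 12.91 in not-injected livers, which overlap (-0.05 ± 0.04; adjusted p = 0.490). A second Cyp2j5 probe set had 10.60, 10.58 and 10.50 in TFEB-injected and 10.90, 10.90 and 10.94 in not-injected livers. It was lower without overlap (-0.35 ± 0.05; adjusted p = 0.00314 over all probe sets), so that the 2 probe sets of Cyp2j5 disagree; their mean gave a fall of 0.20 (adjusted p = 0.0112). Cyp2j13, at 4.19 to 4.49 in TFEB-injected and 4.21 to 4.32 in not-injected livers, did not pass (0.11 ± 0.09; adjusted p = 0.413).

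Cyp2j6, Cyp2j9 and Cyp2j5 stand next to each other on one strand, and the 250 bases before their annotated starts are shown because the first 2 of them rose and the other did not.
Cyp2j6 (chr4:96553652-96553901, strand -): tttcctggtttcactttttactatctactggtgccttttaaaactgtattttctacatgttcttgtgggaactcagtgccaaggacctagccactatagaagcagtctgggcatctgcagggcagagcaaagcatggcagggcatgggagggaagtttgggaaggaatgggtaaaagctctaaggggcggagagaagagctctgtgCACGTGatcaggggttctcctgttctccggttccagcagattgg
Cyp2j9 (chr4:96591486-96591735, strand -): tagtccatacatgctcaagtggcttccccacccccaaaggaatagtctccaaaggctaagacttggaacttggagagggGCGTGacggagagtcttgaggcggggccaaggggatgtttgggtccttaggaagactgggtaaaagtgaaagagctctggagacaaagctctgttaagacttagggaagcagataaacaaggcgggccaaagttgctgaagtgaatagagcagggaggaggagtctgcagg
Cyp2j5 (chr4:96664120-96664369, strand -): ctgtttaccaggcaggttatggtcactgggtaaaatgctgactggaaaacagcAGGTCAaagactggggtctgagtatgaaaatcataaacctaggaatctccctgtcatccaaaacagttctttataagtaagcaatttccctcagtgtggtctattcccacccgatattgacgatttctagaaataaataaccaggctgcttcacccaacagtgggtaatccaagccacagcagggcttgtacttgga

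Capitals mark matches to 5 short motifs. These were CACGTG, the E-box core that TFEB and related factors recognise, GCGTG, the core of the AHR element, and AGGTCA and AGTTCA, half-sites of nuclear receptors such as CAR and PXR, all on both strands, and TATAAA on the gene's strand. None of these motifs contains another. The Cyp2j6 sequence held CACGTG, with its first base 44 bases before the start, Cyp2j9 held GCGTG at 171 and Cyp2j5 held AGGTCA at 197. Upstream sequence was found for 32 of the 39 members, and Cyp2j6 was the 1 of these 32 with CACGTG, a share of 3.12% beside 7.74% of the 9887 tested genes with such sequence. GCGTG was in 18.8% of the members' and 40.6% of all sequences, AGGTCA in 34.4% and 11.6%, AGTTCA in 6.25% and 9.38%, and TATAAA in 34.4% and 6.17%. Of the 9 fallen members with sequence, 0 held CACGTG or GCGTG, 3 held AGGTCA, 2 AGTTCA (Cyp3a11 and Cyp2c50) and 3 TATAAA. Sequences of duplicated genes share descent and are not independent, and a match is a description of letters, not of binding.

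Cyp2b10, the phenobarbital-inducible target of CAR, showed the largest rise among the members and the widest spread. It was at 7.78, 8.84 and 9.68 in TFEB-injected livers, against 7.31, 7.12 and 7.17 in not-injected livers. All 3 injected mice lay above the not-injected ones, but they differed among themselves by more (SD 0.95) than did any other member's arrays in either group. The change was 1.57 ± 0.41, or 2.96-fold (adjusted p = 0.0375), and it lost the call without TFEB-injected replicate 2 (adjusted p = 0.113) or any 1 of the not-injected arrays (adjusted p up to 0.114). A second probe set gave 1.54 ± 0.37. The third, the 1 of them whose name does not mark it as open to related transcripts, gave 0.78 ± 0.27 and did not pass (adjusted p = 0.0986 over all probe sets). Other Cyp2b genes did not pass: Cyp2b9 and Cyp2b13, female-biased in mouse liver, changed by 0.05 ± 0.08 and -0.12 ± 0.08, and the skin form Cyp2b19 by 0.11 ± 0.09. The sequence before the start of Cyp2b10 held GCGTG at 9 and, on the other strand, at 101 bases.
Cyp2b10 (chr7:25897408-25897657, strand +): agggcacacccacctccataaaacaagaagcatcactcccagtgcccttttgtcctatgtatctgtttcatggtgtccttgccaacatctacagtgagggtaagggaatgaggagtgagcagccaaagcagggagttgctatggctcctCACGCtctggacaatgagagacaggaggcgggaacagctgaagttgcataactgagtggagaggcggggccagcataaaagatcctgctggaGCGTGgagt

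**Figure D4:**
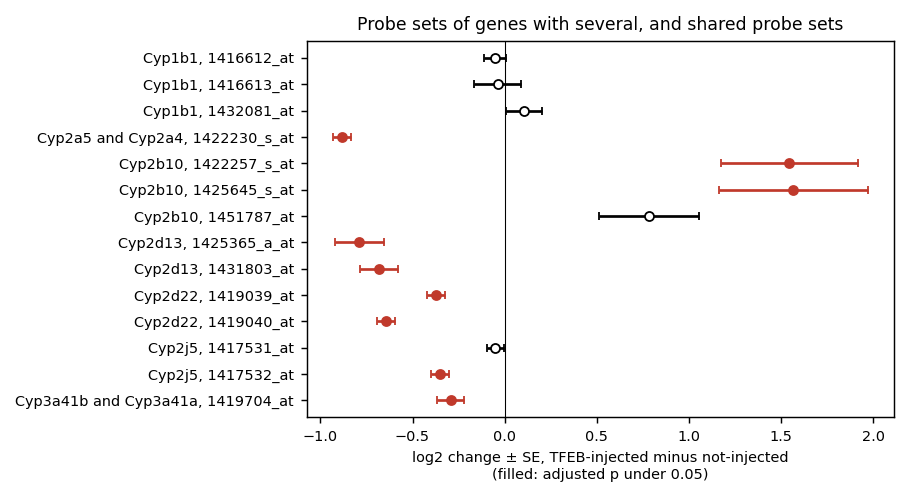
Change on the log2 scale with its SE (TFEB-injected minus not-injected) for each probe set of the 5 P450 genes that have several, and for the 2 probe sets shared by a pair of genes; filled red points have an adjusted p under 0.05 over all probe sets. Probe sets of Cyp2b10, Cyp2d13 and Cyp2d22 lie on one side of 0 for each gene, the 2 of Cyp2j5 differ in size (-0.05 and -0.35), and those of Cyp1b1 lie around 0.

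Several prominent P450 genes showed no call. Cyp1a2, which oxidises aromatic amines and caffeine, was at 13.25, 13.25 and 13.25 in TFEB-injected livers, against 13.26, 13.30 and 13.25 in not-injected livers (-0.02 ± 0.04; adjusted p = 0.781). Cyp2e1, which oxidises ethanol and paracetamol, was at 14.52, 14.52 and 14.49 in TFEB-injected and 14.51, 14.49 and 14.50 in not-injected livers (0.01 ± 0.04; adjusted p = 0.919). Arrays of both groups overlapped in these 2 genes, and their sign turned under another scaling, that of Cyp1a2 with cyclic loess and that of Cyp2e1 with median centring. Cyp2e1 had the highest level of the 39 members, on a scale that ended at 15.20. Levels near that end limit what the arrays can show.

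The AHR targets Cyp1a1 (-0.04 ± 0.07) and Cyp1b1 were at low levels; Cyp1b1 was at 5.46, 5.30 and 5.42 in TFEB-injected and 5.42, 5.52 and 5.40 in not-injected livers (-0.05 ± 0.06; adjusted p = 0.605), and 1 of its other 2 probe sets gave 0.10. Of 4 AHR-inducible P450 genes, Cyp2s1 included, 0 passed by limma and 1 had an unadjusted p under 0.05. Cyp2s1, an epithelial form, was at 5.74, 5.78 and 5.91 in TFEB-injected livers and 5.59, 5.74 and 5.66 in not-injected livers, with no overlap but by a narrow margin (0.15 ± 0.06; adjusted p = 0.156). Cyp2f2, a periportal gene of mouse liver that activates naphthalene, was at 13.89, 13.80 and 13.67 in TFEB-injected and 13.89, 13.92 and 13.91 in not-injected livers (-0.12 ± 0.06; adjusted p = 0.242). Cyp2g1, typical of olfactory mucosa, was at 6.49, 6.85 and 7.21 in TFEB-injected and 6.97, 7.12 and 7.04 in not-injected livers (-0.20 ± 0.16; adjusted p = 0.459), so that 1 injected mouse lay above and 2 below the not-injected ones.

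Grouped by other known traits, the members again moved unevenly. Of 7 measured pericentral P450 genes, 3 fell (Cyp2c50, Cyp2c54 and Cyp3a11) and 0 rose, with a median change of -0.18, while the 1 periportal member, Cyp2f2, did not pass. The 3 pericentral calls are 42.9% of that list, beside falls in 35.9% of the 39 members and 7.92% of all genes. All 7 had mean levels over 12, where 56.2% of members and 20.8% of all genes fell. Without TFEB-injected replicate 2 or any 1 of the not-injected arrays, Cyp2c54 was the 1 left. Cyp2a5, also pericentral, is not counted, since it was reached only by the probe set it shares with Cyp2a4, which was lower (-0.88). Of 12 genes inducible through CAR or PXR, 5 fell and 1 rose, with a median of -0.17: Cyp2c50, Cyp2c54, Cyp2c55, Cyp3a11 and Cyp3a25 were lower and Cyp2b10 was higher. Without TFEB-injected replicate 2 or any 1 of the not-injected arrays, 3 of these were lower (Cyp2c54, Cyp2c55 and Cyp3a25) and 0 higher. With all arrays the fallen were 41.7% and the risen 8.33% of that list, near the 35.9% and 7.69% of the 39 members. Over all genes 7.92% fell and 9.99% rose. The counts of this list also leave out Cyp2a4 and Cyp2a5, with that same shared probe set, and Cyp2c66, which had no probe set of its own. Of 4 measured female-biased genes 0 passed by limma (1 at an unadjusted p under 0.05), but the probe sets shared by Cyp2a5 with the female-biased Cyp2a4 and by the female-biased Cyp3a41b and Cyp3a41a were both lower (-0.88 and -0.29). The 1 measured male-biased gene, Cyp2d9, fell, with a call lost in 5 of the 6 fits that left out 1 array.

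Individual injected mice differed in how far these genes lay from the controls. In 12 of the 14 members that fell and in all 3 that rose, TFEB-injected replicate 3 was the mouse farthest from the not-injected mean. TFEB-injected replicate 1 was nearest in 12 of the 14 and in all 3. Over all genes, replicate 3 was farthest in 528 of 981 that fell and 730 of 1238 that rose, and replicate 1 was nearest in 454 and 764 of them. The median shift of the 14 fallen members was -0.37, -0.46 and -0.57 in TFEB-injected replicates 1, 2 and 3. Markers of macrophages and Kupffer cells also differed between groups: 9 of 13 rose (69.2%, beside 9.99% over all genes) and 0 fell, with a median change of 0.45. Their summed log2 level was 120.3 to 123.9 in TFEB-injected livers, with replicate 3 the lowest, and 116.1 to 116.5 in not-injected livers, and the part of this in the P450 results was not tested. In bulk liver RNA, fewer hepatocytes and less of a transcript per hepatocyte cannot be told apart; the summed level of the 8 hepatocyte markers was 115.14 to 115.30 in TFEB-injected and 115.08 to 115.14 in not-injected livers.

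Markers of other cell types also included called genes, to be read beside 9.99% risen and 7.92% fallen over all genes tested. In lists this short, a share resting on 1 or 2 calls is not read as a change of a cell type. Sinusoidal endothelial markers rose in 2 of 9 cases, Stab2 (1.42 ± 0.05) and Lyve1 (0.89 ± 0.07), both for scavenger or hyaluronan receptors, and fell in 0. Stellate cell markers rose in 1 of 8 and fell in 2, and lymphocyte markers rose in 2 of 10 and fell in 1, the immunoglobulin gene Ighm (-0.99 ± 0.20). Among cholangiocyte markers 0 of 6 rose and 1 fell (16.7%), and among neutrophil markers 1 of 5 rose (20.0%) and 0 fell. Among pancreatic acinar markers 0 of 5 rose and 3 fell (60.0%), among them the elastase gene Cela1 (-0.85 ± 0.05). The part of these in the P450 results was not tested. By limma 0 of 6 kidney tubule markers and 0 of 3 intestinal markers passed, with 1 and 0 of them at an unadjusted p under 0.05.

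Of 11 receptors and regulators of these genes, 1 fell and 0 rose, with a median change of -0.14. The 1 called is 9.09% of the list, near the 7.92% of all genes that fell. Nr1i3, the gene of CAR, was at 8.61, 8.75 and 8.80 in TFEB-injected livers, against 8.99, 8.98 and 8.995 in not-injected livers. Its fall of 0.27 ± 0.06 (adjusted p = 0.0189) was lost without TFEB-injected replicate 2 or any 1 of the not-injected arrays (adjusted p up to 0.0699). Nr1i2, the gene of PXR, was at 8.27, 8.48 and 8.54 in TFEB-injected and 8.66, 8.65 and 8.73 in not-injected livers, separate but short of the threshold (-0.25 ± 0.08; adjusted p = 0.0645). Ahr was at 9.78, 9.86 and 10.04 in TFEB-injected and 9.998, 9.94 and 10.01 in not-injected livers, with overlap (-0.09 ± 0.07; adjusted p = 0.452). In the 2 receptor genes the injected mouse nearest to the controls was replicate 3, the one farthest from them in most of the called P450 genes.

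**Figure D5:**
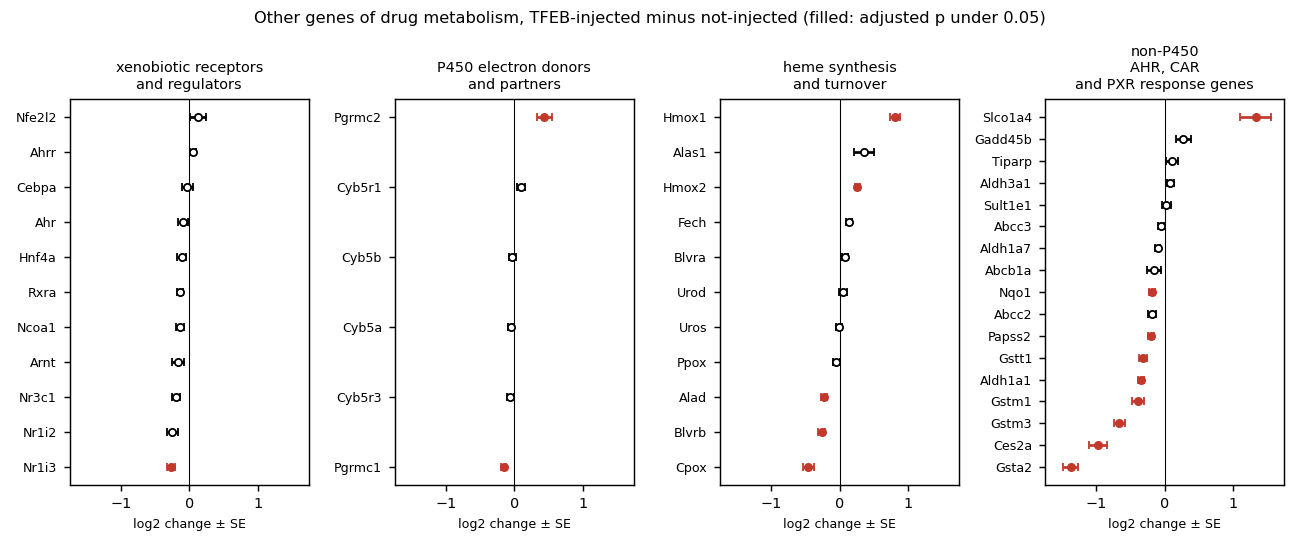
Change on the log2 scale with its SE (TFEB-injected minus not-injected) for other genes of drug metabolism in 4 panels: receptors and regulators, electron donors and partners, heme synthesis and turnover, and non-P450 genes that respond to AHR, CAR or PXR; filled red points have an adjusted p under 0.05. Slco1a4 has the largest rise (1.33) and Gsta2 the largest fall (-1.37).

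Of 6 measured electron donors and partners, 1 rose and 1 fell, 16.7% each, beside 9.99% risen and 7.92% fallen over all genes. Por is not analysed here since no probe set named it alone. The cytochrome b5 gene Cyb5a changed by -0.05 ± 0.04 (adjusted p = 0.434). Pgrmc1, for a heme-binding P450 partner, fell by 0.16 ± 0.04, which no longer passed once any 1 of the 6 arrays was dropped (highest adjusted p 0.129). Its relative Pgrmc2 rose by 0.44 ± 0.11, a call lost without TFEB-injected replicate 2 or any 1 of the not-injected arrays (adjusted p up to 0.101). Among 11 heme genes 2 rose (18.2%) and 3 fell (27.3%). The heme oxygenase genes Hmox1 (0.81 ± 0.07) and Hmox2 (0.26 ± 0.04), whose products break heme down, rose. Cpox (-0.46 ± 0.08) and Alad (-0.23 ± 0.05), for enzymes of heme synthesis, fell, as did Blvrb (-0.26 ± 0.05), for biliverdin reductase B; the Alad call was lost without TFEB-injected replicate 2 or not-injected replicate 2 (adjusted p up to 0.0655). Alas1, for the first enzyme of heme synthesis in liver, was at 12.01, 11.80 and 11.37 in TFEB-injected livers and 11.37, 11.30 and 11.44 in not-injected livers, and did not pass (0.35 ± 0.15; adjusted p = 0.149).

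Among 17 measured genes outside the P450 families that respond to AHR, CAR or PXR, 8 fell and 1 rose, with a median change of -0.18. These are 47.1% fallen and 5.88% risen, beside 7.92% and 9.99% over all genes. The list holds conjugating and other enzymes, transporters and stress-response genes; of its 4 transporter genes, 1 rose and 0 fell. The glutathione transferase gene Gsta2 was at 9.40, 9.31 and 8.97 in TFEB-injected livers and 10.56, 10.53 and 10.70 in not-injected livers (-1.37 ± 0.11; adjusted p = 3.17e-04). Gstm3 (-0.66 ± 0.08), Gstt1 (-0.31 ± 0.06), the carboxylesterase gene Ces2a (-0.98 ± 0.13) and the aldehyde dehydrogenase gene Aldh1a1 (-0.35 ± 0.05) fell too. Gstm1 (-0.39 ± 0.09), Papss2 (-0.20 ± 0.04), for an enzyme of sulfate activation, and Nqo1 (-0.18 ± 0.05), for a quinone reductase, also fell. Each of these last 3 calls was lost without any 1 of the not-injected arrays, that of Papss2 also without TFEB-injected replicate 2 and that of Nqo1 also without TFEB-injected replicate 1 or 2. The highest adjusted p was 0.0831 for Gstm1, 0.0775 for Papss2 and 0.149 for Nqo1. The gene that rose was Slco1a4, for an organic anion uptake transporter, at 9.84, 10.39 and 10.88 in TFEB-injected livers, against 9.05, 9.06 and 9.004 in not-injected livers (1.33 ± 0.22; adjusted p = 0.00683). Like Cyp2b10 it was highest in TFEB-injected replicate 3 and lowest of the injected mice in replicate 1.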

How the data were processed

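Total liver RNA of 6 mice was hybridised as biotin-labelled cRNA to Affymetrix arrays, per the labels' protocols. The deposited values are log2 levels that the authors made with RMA in the affy package, per the submitters' processing notes; RMA corrects background, quantile-normalizes the arrays and summarises probes, which hides overall shifts and understates changes of dim genes. No source used here gives versions or a build. Precision is limited by the number of arrays, 3 in each group.

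Of 22690 probe sets, 20380 non-control ones with 1 gene symbol covered 12393 genes; the brightest per gene was tested with limma 3.58.1 (lmFit, eBayes; R 4.3.3), the p-values being adjusted by Benjamini-Hochberg over all 12393 genes and called under 0.05. Shared and further probe sets come from a fit of all 22626 non-control probe sets. In simulated data for this comparison on 12393 genes, with 200 changed, 64% of changes of 0.5 and 36% of changes of 0.3 were recovered. The simulation gave both groups the same spread, and far more genes, 2219, were called in the real data. Its rates therefore do not give the power for the members here. Per-array values are given for called members that changed by over 0.3 and for the brightest member of each subfamily. Outside the members, Tfeb, Ppara, Alb and the 3 receptor genes are named. So are the called genes of the lists of receptors, partners, heme genes and response genes. Cyp2c29, Cyb5a, Alas1, Xist, Eif2s3y, Kdm5d, Stab2, Lyve1, Ighm and Cela1 were given after their values were seen. Other called cell type markers are counted but not named. Members, gene lists and motifs were chosen with earlier results of these data known. The alternatives were other probe set rules, scalings, variance models and thresholds, a filter on dim genes, a replicate block and leaving out each array. Figures were drawn with matplotlib 3.10.9.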

Additional observations from a re-analysis of the deposited data

How the results depend on the processing

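Values of the 17 called members and of the brightest member of each subfamily were tallied under the alternatives. Of these values, 313 kept their direction and side of the threshold, 34 lost and 4 gained a call, and 3 turned sign. Members outside this tally gained calls too, such as Cyp2c29 and Cyp3a44 with median centring and with array weights. Over all 39 members, 0 of 252 values of called members changed sign, and 12 of 316 values of members not called did. Within the tally, signs turned for Cyp1b1 (0.0045 with the mean of its probe sets), Cyp2e1 (-0.0225 with median centring) and Cyp1a2 (0.0032 with cyclic loess). Outside it they turned for Cyp1a1 (0.0629) and Cyp2b9 (-0.0454) with array weights, and for Cyp2c65 (0.0191) and Cyp3a16 (0.0136) with cyclic loess. None of these 7 genes was called. The count of 17 called members (14 lower, 3 higher) was 27 (22 and 5) with array weights, whose iteration stopped short of its tolerance, 10 (9 and 1) with an unmoderated test and 11 (1 higher) at an adjusted p under 0.01. Leaving out 1 array gave 11 to 20 called members, 10 to 16 lower and 1 to 4 higher. Calls over all genes, 2219 as reported, were 3384 with every probe set, 5854 with array weights, 1053 at 0.01 and 1229 to 2409 with 1 array left out. Same-numbered arrays did not deviate together (r = 0.01, -0.13 and -0.11), so no pairing by number was seen. Deviations from means of 3 arrays are tied to each other and cannot exclude one. With the replicate block 14 members and 1533 of all genes were called, and Cyp2c50, Cyp2d9 and Cyp2d12 were not among them. Cyp2b10 lost its call without _s_at and _x_at probe sets (0.78; adjusted p = 0.0951) and with an intensity trend (adjusted p = 0.124). Without _s_at and _x_at probe sets, Cyp2c23 was not measured. Where a call was lost, the cause was not tested. Levels near the ends of the scale limit what the arrays can show.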
